A study of Homo sapiens with 9 samples.

Results

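The 9 genes described here encode receptors and adhesion molecules of the neutrophil surface: FPR1, FPR2, C5AR1, CSF3R, SELPLG, ITGAM, ITGB2, TREM1 and FCGR2A. They are 9 of the 57338 genes of the expression table and were selected on their RPKM in the libraries labelled hPRM1 against the empty vector, so their values in that contrast are given as a description without a test. All 9 symbols matched an Ensembl identifier of the table. By their labels all 9 libraries are from HEK293T, a line derived from human embryonic kidney. Cells were transfected with an empty vector carrying enhanced green fluorescent protein (EGFP) or with EGFP fused to human protamine 1 (hPRM1) or protamine 2 (hPRM2), the small basic proteins that replace histones in sperm. Live cells with high EGFP were sorted 3 days later, and each of the 3 groups had 3 libraries. The labels give 1 cell line for all groups, and whether the replicates were separate transfections was not given in the sources used here, so p-values measure only the spread between these libraries. The study asked what protamines do to transcription in somatic cells.

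Neutrophils are the most abundant granulocytes of human blood and migrate to sites of infection. Bacterial formyl peptides and the complement fragment C5a attract them through G protein-coupled receptors, and G-CSF drives their production through the G-CSF receptor. They roll on vessel walls through PSGL-1, which binds selectins, and then arrest through β2 integrins. Activating receptors with signalling motifs in their tails or adaptors (ITAMs) trigger phagocytosis and release of mediators. The genes are characteristic of leukocytes, the white blood cells, and not of kidney epithelium.

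Expression was measured by 3′-end mRNA sequencing and deposited as RPKM, reads scaled to gene length and to the reads of the library. Estimated depth was 7930000 to 10790000 reads on genes for the empty vector. It was 4210000 to 5860000 for the libraries labelled hPRM1 and 1270000 to 2650000 for hPRM2. Each estimate rested on 80 to 394 genes whose value stood for 1 read. The study reported more reads for hPRM2 than for hPRM1, the opposite order, but for all reads obtained and not for those on genes. Where a gene is at 0, up to 3 reads remain possible, or 0.278 to 0.378 CPM for the empty vector, 0.512 to 0.712 for hPRM1 and 1.13 to 2.36 for hPRM2. These limits cover counting error only. PRM1 itself was listed at 0 in all 9 libraries, including those labelled hPRM1, whereas PRM2 was at 71224, 60050 and 36130 RPKM in hPRM2 replicates 1 to 3 and at 0 in the other 6. The name hPRM1 is therefore given below as a label only. The hPRM1 libraries also carry library numbers from another run of numbers than the other 6, and that difference and the condition cannot be told apart.

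Markers of the labelled cell type were checked beside those of blood cells. The 11 HEK293T markers summed to 197 to 215 RPKM in the empty vector and 235 to 313 RPKM in hPRM2, but to 1.06 to 2.17 RPKM in the libraries labelled hPRM1. In those libraries LIN28B, PAX2, IGF2BP1, HMGA2, NES and DLK1 were among the markers at 0 in all 3 replicates, although DLK1 was at 0 in every group. The 14 neutrophil granule and cytosol genes summed to 3231 to 4323 RPKM there, with 11 of 14 at 1 RPKM or more in each replicate, against 0.599 to 5.13 RPKM in the empty vector and 0.764 to 8.55 RPKM in hPRM2. The 8 erythroid markers, led by haemoglobin genes, summed to 2060000 to 2266000 RPKM, against 3.09 to 18.2 and 2.16 to 16.3 RPKM. Sums of 7 monocyte markers (373 to 484 RPKM), 7 T cell markers (254 to 410 RPKM), 5 B cell markers (54.5 to 65.4 RPKM) and 6 platelet markers (320 to 564 RPKM) were also highest in the libraries labelled hPRM1. In the empty vector these 4 lists reached 44.8 to 47.5, 0 to 3.03, 0.739 to 1.68 and 3.85 to 13.5 RPKM. In hPRM2 they reached 24.4 to 59.0, 33.3 to 71.0, 0 to 2.76 and 0 to 2.25 RPKM. Of the 7 T cell markers, 5 were at 0 in all 3 hPRM2 libraries and 1 was at 1 RPKM or more in each. Of the 7 monocyte markers, 4 were at 0 in all 3 empty vector libraries and 2 were at 1 RPKM or more in each. The libraries labelled hPRM1 thus go against both of their labels, the transgene and the cell line, and no value below is given as an effect of hPRM1 in HEK293T cells. The part these markers play in the receptor values was not tested. In such bulk samples, fewer cells of a type and less RNA per cell cannot be told apart.

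**Figure D1:**
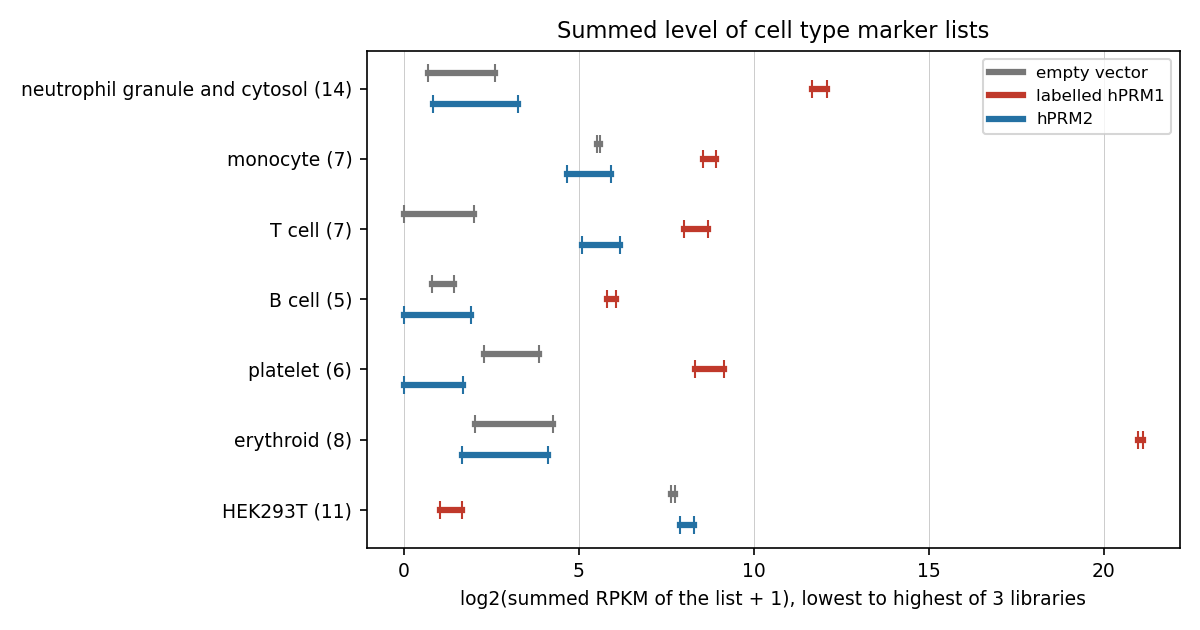
Range over the 3 libraries of each group of the summed RPKM of 7 marker lists, on a log2(sum + 1) axis, with the number of genes in parentheses. The blood cell lists are highest in the libraries labelled hPRM1 (red), where the HEK293T list falls to 1.06 to 2.17 RPKM.

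All 9 receptors had the same overall pattern: a level of at least 5.34 RPKM in each library labelled hPRM1, and a level below 1 RPKM elsewhere, except for ITGAM and FCGR2A in hPRM2. Summed over the 9 genes, RPKM was 2198, 2380 and 2063 in hPRM1 replicates 1 to 3. The sum was 1.06, 2.54 and 0 in the empty vector and 0, 15.0 and 34.0 in hPRM2. All 9 genes were above 0 in each library labelled hPRM1. In the empty vector 3, 6 and 0 of them were above 0, and in hPRM2 0, 2 and 4 were. For all 9 genes the 3 hPRM1 libraries lay above the 3 empty vector libraries. Of the 13588 tested genes, 14.5% showed this in the same direction. All 9 were called higher by limma (adjusted p at most 0.05 and fold at least 2), where 12.9% of tested genes were called higher and 62.5% lower. Because this contrast chose the genes, and they passed the filter on low values through the hPRM1 libraries alone, nothing is read from these counts. The median log2 difference was 6.57 for the receptors and -1.72 for all tested genes.

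**Figure D2:**
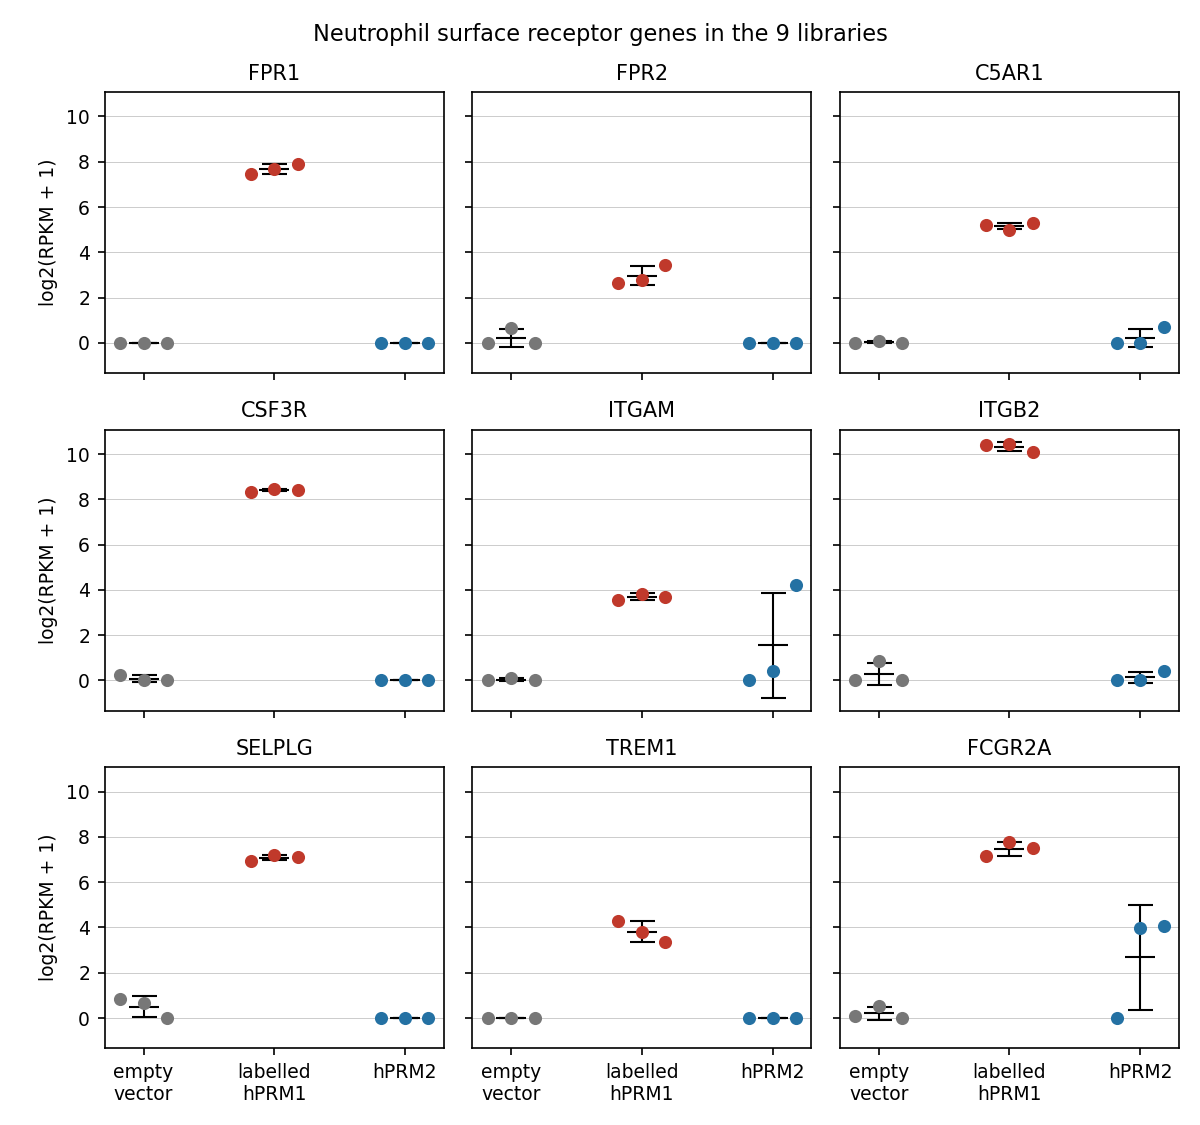
Level of each receptor gene in each library as log2(RPKM + 1), 1 point per library, with the mean and SD of 3 libraries in black. The libraries labelled hPRM1 (red) stand apart for every gene, while ITGAM in hPRM2 replicate 3 and FCGR2A in hPRM2 replicates 2 and 3 are the values above 1 RPKM elsewhere.

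Within the libraries labelled hPRM1, the receptors spanned a wide range of RPKM, from ITGB2 at the 99.8th percentile of genes above 0 to FPR2 at the 74.9th. In order of mean level they ran ITGB2, CSF3R, FPR1, FCGR2A, SELPLG, C5AR1, TREM1, ITGAM and FPR2. The ranges of FPR1 and FCGR2A, of FCGR2A and SELPLG, and of TREM1 and ITGAM overlapped, so those neighbours are not separated by the spread over replicates. The other neighbours did not overlap. RPKM divides 3′-end reads by transcript length, so a comparison between genes holds only on this scale.

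FPR1 and FPR2 encode the formyl peptide receptors and overlap on chromosome 19 (GRCh38, GENCODE 29 gene models). FPR1 (ENSG00000171051, chr19:51745172-51804110, minus strand) was at 173, 207 and 240 RPKM in hPRM1 replicates 1 to 3 and at 0 in the other 6 libraries. Its mean was 206 ± 33.4 RPKM (SD, n = 3), with all 3 values above the rest. Against the limit of 3 reads in the shallowest library, and the shortest transcript of at least 400 bases, this was at least 184-fold higher than the empty vector and at least 29.5-fold higher than hPRM2.

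FPR2 (ENSG00000171049, chr19:51752026-51770526, plus strand) lies within the span of FPR1 on the opposite strand. It was at 5.34, 5.90 and 9.92 RPKM in the hPRM1 libraries, with a mean of 7.05 ± 2.50 RPKM (SD, n = 3). Apart from 0.581 RPKM in empty vector replicate 2, which corresponds to 10 reads for a transcript of 2262 bases, it was at 0 elsewhere. Over all annotated transcripts of FPR2 that value stands for between 1.46 and 11.8 reads. The log2 difference from the empty vector was 2.75 (SE 0.32). For the 543-base transcript, the shortest of at least 400 bases, the mean hPRM1 level would give 2.63 reads in the shallowest hPRM2 library. That is fewer than a 0 allows, so no fold against hPRM2 is given, although a longer transcript would give more reads. FPR1 exceeded FPR2 by 32.4, 35.0 and 24.1 times in RPKM in the 3 libraries. Whether reads were counted by strand was not given in the sources used here, so reads of the overlapping pair may have been split. The last 300 bases of their longest coding transcripts were 46.2% identical, with no identical run over 8 bases. FPR3, a related receptor whose gene also overlaps FPR1, was at 0.648, 0.501 and 0.161 RPKM in hPRM1 and was not tested because of its low level.

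C5AR1 (ENSG00000197405, chr19:47290023-47322066, plus strand) encodes the receptor for C5a. It was at 35.5, 30.9 and 37.7 RPKM in hPRM1 replicates 1 to 3, a mean of 34.7 ± 3.48 RPKM (SD, n = 3). Empty vector replicate 2 had 0.0567 RPKM, which is 1 read, and hPRM2 replicate 3 had 0.603 RPKM, which is 2 reads. The other 4 libraries were at 0. On the log2 scale it exceeded the empty vector by 5.13 (SE 0.19). C5AR2, the second C5a receptor, was at 8.90, 10.6 and 11.0 RPKM in hPRM1 at 0 in the empty vector, and at 0, 2.54 and 1.05 RPKM in hPRM2. The C5AR1 to C5AR2 ratio was 3.99, 2.90 and 3.41.

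CSF3R (ENSG00000119535, chr1:36466043-36483278, minus strand), which encodes the G-CSF receptor, was at 324, 351 and 340 RPKM in the hPRM1 libraries. Its mean of 338 ± 13.5 RPKM (SD, n = 3) varied the least of the 9 genes, with a coefficient of variation of 4.0%. Empty vector replicate 1 had 0.186 RPKM, which corresponds to 1 read for a transcript of 928 bases, and the other 5 libraries were at 0. For longer transcripts that value would stand for up to 8.59 reads. The log2 difference from the empty vector was 8.32 (SE 0.18). Against hPRM2 the level was at least 37.6-fold higher if the reads came from transcripts of 512 bases or more. An annotated transcript of 321 bases would give a lower limit. CSF2RB, the shared β chain of related cytokine receptors, was at 10.9, 8.19 and 10.7 RPKM in hPRM1 and at 0 in the other 6 libraries.

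SELPLG (ENSG00000110876, chr12:108622277-108633959, minus strand) encodes PSGL-1, on which leukocytes roll. It was at 122, 145 and 137 RPKM, a mean of 135 ± 11.3 RPKM (SD, n = 3), in the hPRM1 libraries. The empty vector had 0.818, 0.583 and 0 RPKM, corresponding to 13, 10 and 0 reads for the 2256-base transcript. All 3 hPRM2 libraries were at 0, at least 77.9-fold lower. Compared with the empty vector, the log2 difference was 6.57 (SE 0.27).

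ITGB2 (ENSG00000160255, chr21:44885953-44931989, minus strand) encodes the β2 integrin chain CD18. It was the highest receptor, at 1367, 1397 and 1096 RPKM in hPRM1 replicates 1 to 3, with a mean of 1287 ± 166 RPKM (SD, n = 3). Elsewhere it was at 0.811 RPKM in empty vector replicate 2 and 0.332 RPKM in hPRM2 replicate 3, and at 0 in the other 4. These correspond to 13 reads and 1 read for a transcript of 2125 bases. Over annotated transcripts that give about 1 read or more, they stand for between 1.19 and 31.4 reads and between 1 and 2.42 reads. On the log2 scale it exceeded the empty vector by 10.04 (SE 0.29). The antisense gene ITGB2-AS1 was at 7.55, 11.7 and 12.6 RPKM in hPRM1 and at 0 elsewhere, and reads of the 2 genes cannot be told apart without strand. AL844908.2, an RNA annotated inside an ITGB2 intron on the same strand, had the opposite order: 6.61, 27.8 and 23.0 RPKM in the empty vector against 0, 1.13 and 0 RPKM in hPRM1, with 0, 3.74 and 5.92 RPKM in hPRM2.

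ITGAM (ENSG00000169896, chr16:31259967-31332892, plus strand) encodes CD11b, the α chain that pairs with CD18 in Mac-1. It was at 10.6, 13.3 and 12.02 RPKM in the hPRM1 libraries, a mean of 11.98 ± 1.32 RPKM (SD, n = 3). Only empty vector replicate 2 was above 0 among the controls, at 0.0782 RPKM, which is 3 reads for a transcript of 4737 bases. Compared with the empty vector, the log2 difference was 3.66 (SE 0.21). In hPRM2 it was at 0, 0.350 and 17.5 RPKM, so replicate 3 exceeded every hPRM1 library. That value corresponds to 5 reads if they fell on a transcript of 428 bases, and to between 3.60 and 126.3 reads over all annotated transcripts, because RPKM depends on the assumed length. ITGB2 exceeded ITGAM by 128, 105 and 91.1 times in RPKM. ITGAL and ITGAX, which encode further α chains that pair with CD18, were higher than ITGAM in each library: ITGAL, of the integrin LFA-1, at 44.4, 75.0 and 43.7 RPKM, and ITGAX at 36.5, 59.5 and 50.4 RPKM. Summed, ITGAM, ITGAL and ITGAX were still exceeded by ITGB2 by 14.9, 9.45 and 10.3 times. ITGB1, the β chain of many other integrins, was at 96.5, 71.8 and 37.0 RPKM in the empty vector and 27.3, 45.2 and 33.4 RPKM in hPRM1. Its log2 difference of -0.86 (SE 0.39; adjusted p = 0.0774, limma) did not pass the test. With median-of-ratios scaling it turned to 1.28 and was called higher, and with quantile normalization it was 0.84 and not called.

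TREM1 (ENSG00000124731, chr6:41267926-41286719, minus strand) encodes a receptor that amplifies inflammatory signals through the adaptor TYROBP. It was at 18.7, 12.9 and 9.17 RPKM in the hPRM1 libraries and at 0 in the other 6. The mean of 13.6 ± 4.81 RPKM (SD, n = 3) was at least 9.67-fold higher than the empty vector and at least 1.55-fold higher than hPRM2. TYROBP was at 1913, 2349 and 2421 RPKM in hPRM1 and at 0 in the other 6. TYROBP exceeded TREM1 by 102, 181 and 264 times in RPKM.

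FCGR2A (ENSG00000143226, chr1:161505430-161524013, plus strand) encodes an Fc receptor for IgG with a signalling motif in its own tail. It was at 141, 218 and 182 RPKM in the hPRM1 libraries, a mean of 180 ± 38.2 RPKM (SD, n = 3). The empty vector had 0.0583, 0.433 and 0 RPKM, which are 1, 8 and 0 reads for a transcript of 2412 bases. For a shorter transcript the value of replicate 2 could rest on as few as 1.14 reads. In hPRM2 it was at 0, 14.6 and 15.6 RPKM, between 3.61 and 40.3 reads in replicate 2 and between 4.88 and 54.4 in replicate 3. Those 2 values lie well below all hPRM1 libraries and above all empty vector libraries. On the log2 scale it exceeded the empty vector by 7.28 (SE 0.26). Because FCGR2A has close relatives in the same gene cluster, its counts are uncertain where reads could be split among them. The last 300 bases of its longest coding transcript were 52.5% identical to those of FCGR2B, with no identical run over 9 bases, and other transcripts were not compared. FCGR2B, an inhibitory relative, was at 4.21, 5.83 and 8.53 RPKM in hPRM1 and at 0 elsewhere. FCER1G, the common γ adaptor of Fc receptors, was at 296, 420 and 315 RPKM in hPRM1 and at 0 elsewhere.

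The promoters of the receptors were read from RefSeq (GRCh38.p14) as the 250 bases before the RefSeq gene start, for the 7 genes with an entry (not ITGB2 or SELPLG). The motif GAGGAA, the core bound by the myeloid factor PU.1, occurred on either strand in 3 of the 7, against 23.6% of 35116 promoters of the table. The 3 are shown because SPI1, the gene of PU.1, was itself high in the hPRM1 libraries, at 37.4, 49.1 and 58.8 RPKM, and at 0 in the other 6. Capitals mark GAGGAA or its reverse complement TTCCTC, and the sequences run 5′ to 3′ on the strand of the gene, all plus here. RefSeq and GENCODE place gene starts differently, so the C5AR1 window lies inside the GENCODE span given above and the other two windows end just inside theirs. They stand at chr19:47309611-47309860 (C5AR1), chr16:31259725-31259974 (ITGAM) and chr1:161505207-161505456 (FCGR2A).
C5AR1: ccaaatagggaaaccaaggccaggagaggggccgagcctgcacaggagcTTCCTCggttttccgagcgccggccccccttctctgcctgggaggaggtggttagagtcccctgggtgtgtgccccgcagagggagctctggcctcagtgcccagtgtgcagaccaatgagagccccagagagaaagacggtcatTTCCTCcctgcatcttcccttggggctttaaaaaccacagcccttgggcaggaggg
ITGAM: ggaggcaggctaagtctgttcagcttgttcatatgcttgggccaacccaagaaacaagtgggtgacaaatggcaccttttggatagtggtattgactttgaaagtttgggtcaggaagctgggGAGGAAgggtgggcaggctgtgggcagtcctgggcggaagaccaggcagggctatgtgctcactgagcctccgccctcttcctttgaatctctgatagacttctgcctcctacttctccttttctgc
FCGR2A: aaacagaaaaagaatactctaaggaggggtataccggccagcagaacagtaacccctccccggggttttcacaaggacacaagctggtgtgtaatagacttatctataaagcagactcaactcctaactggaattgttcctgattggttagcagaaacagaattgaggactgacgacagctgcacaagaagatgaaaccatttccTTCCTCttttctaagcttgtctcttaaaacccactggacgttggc
The C5AR1 window holds 2 matches and the other two hold 1 each. The pattern TTNNGNAA, of C/EBP factors, occurred in 5 of the 7 promoters against 33.2% of all, TGTGGT in 2 against 11.0%, TATAAA in 2 against 10.7% and GGGCGG in 1 against 42.6%. These are matches of letters on either strand and no measure of binding, and a role of PU.1 in the receptor values was not tested.

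The hPRM2 libraries were compared with the empty vector, a contrast that did not choose the genes but shares the empty vector libraries with it. None of the 9 receptors passed the filter of 1 RPKM in at least 3 of 6 libraries, so none was tested, where 1.36% of 13126 tested genes were called higher and 1.37% lower. In a fit without the filter, limma gave a log2 difference of 2.47 for FCGR2A (SE 1.15; adjusted p = 0.330) and of 1.51 for ITGAM (SE 1.11; adjusted p = 0.493). SELPLG differed by -0.51 (SE 0.27; adjusted p = 0.360). FPR2, C5AR1, CSF3R and ITGB2 differed by -0.22, 0.20, -0.08 and -0.15, with adjusted p between 0.519 and 0.754, and FPR1 and TREM1 were at 0 throughout. Two-sided exact permutation tests of the 7 genes with a value gave p = 0.4 for FCGR2A, ITGAM and SELPLG (0.933 after Benjamini-Hochberg adjustment over 7 tests) and 1 for the others, and the smallest p that 3 libraries against 3 can give is 0.1. At the mean hPRM1 level and for the shortest transcript of at least 400 bases, the shallowest hPRM2 library would hold 281.8 reads of ITGB2. On the same basis it would hold 233.6 of SELPLG, 112.8 of CSF3R, 88.5 of FPR1 and 44.6 of FCGR2A. For C5AR1 it would hold 6.93, for TREM1 4.66 and for ITGAM 2.72. A longer transcript would give more reads. The shortest annotated transcripts of CSF3R (321 bases), ITGAM (378 bases) and FCGR2A (259 bases) would give fewer.

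**Figure D3:**
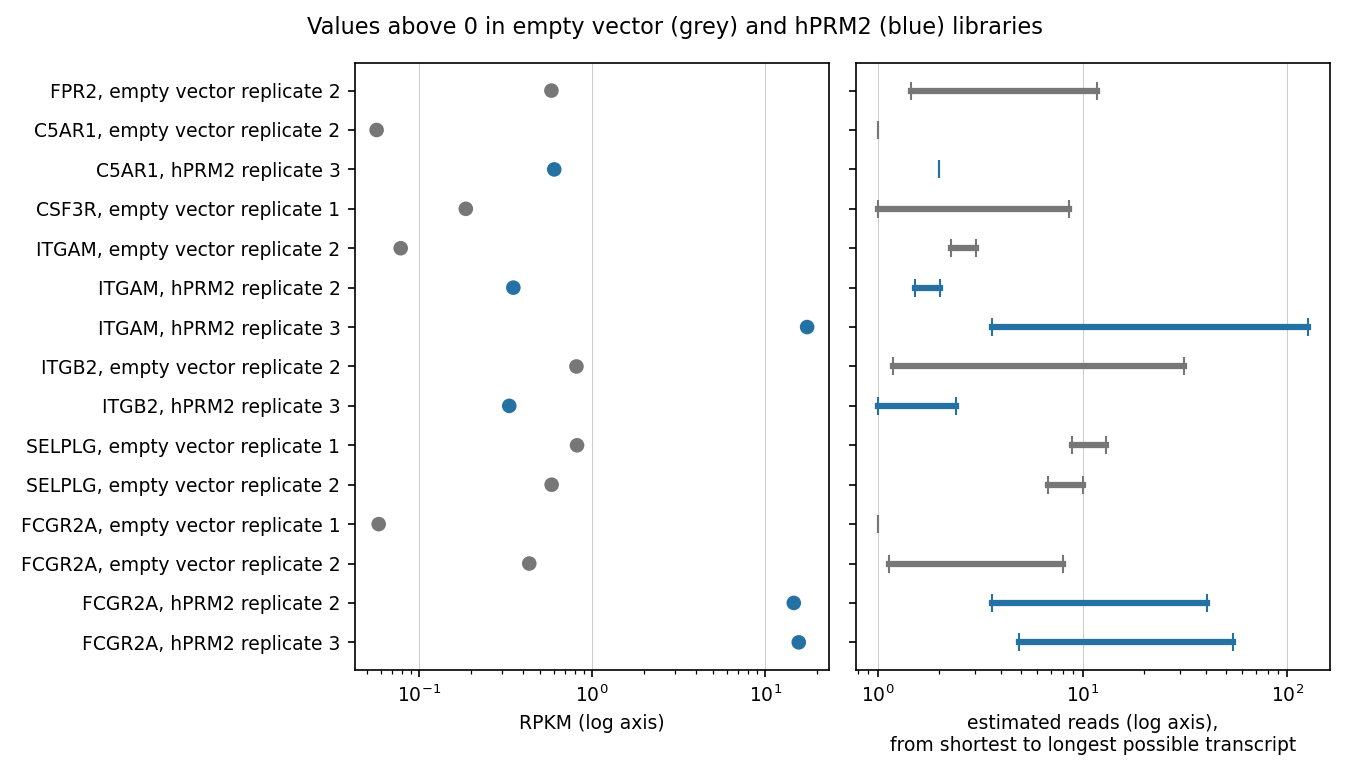
All receptor values above 0 in the empty vector (grey) and hPRM2 (blue) libraries: RPKM at left and the range of reads it can stand for at right, from the shortest to the longest annotated transcript, on log axes. The values of ITGAM and FCGR2A in hPRM2 are high in RPKM but may rest on as few as 3.60 reads.

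Set against hPRM2, which shares its libraries with the contrast that chose the genes, the libraries labelled hPRM1 had 8 of the 9 receptors called higher and the ranges of the same number did not overlap. All 9 passed the filter through the hPRM1 libraries, and none reached 1 RPKM in all 3 hPRM2 libraries, so these counts are a description. Among all 11756 tested genes 16.0% were called higher and 19.0% did not overlap in this direction, and the median log2 difference was 4.93 for the receptors and -0.97 for all genes. ITGAM was the exception, with a log2 difference of 2.15 (SE 1.13). It rests on hPRM2 replicate 3: without that library it was 3.48 and called, while it was 1.37 without hPRM2 replicate 1 and 1.59 without hPRM2 replicate 2. FCGR2A differed by 4.81 (SE 1.12) and lost its call without hPRM1 replicate 2 (4.66) or without hPRM1 replicate 3 (4.79). Without hPRM2 replicate 1 it was 3.47, and without hPRM2 replicates 2 and 3 in turn it was 5.45 and 5.50.

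Genes that work with the receptors were examined next, as 6 lists of 113 partner genes and a list of 27 other phagocyte receptors. In the hPRM1 comparison 58 of 100 tested partner genes were called higher and 16 lower, against 12.9% and 62.5% of all tested genes, with a median log2 difference of 1.49. Of the 100, 29 had no empty vector library at 1 RPKM and passed the filter only through the hPRM1 libraries, so that a rise was built in. Of these, 28 were called higher (96.6%), against 98.8% of the 1002 such genes among all tested genes. Of the 60 that reached 1 RPKM in all 3 empty vector libraries, 22 were higher (36.7%) and 16 lower (26.7%), with a median of 0.05. Of all 11304 genes at that level, 3.80% were higher and 75.0% lower, with a median of -2.07. These shares of all genes are also the background for each list below. With median-of-ratios scaling the median of all genes moved from -1.72 to -0.12 and 81 partner genes were higher and 7 lower. With quantile normalization it moved to -0.38 and 76 were higher and 7 lower. Over all genes, 1750 were higher and 8491 lower as deposited, 3926 and 3945 with median of ratios, and 3404 and 4672 with quantile normalization.

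Of 14 ligand genes, 7 were tested, of which 6 were called higher and 1 lower, 5 of them passing the filter only through the hPRM1 libraries. PGLYRP1, a ligand of TREM1, was at 39.2, 37.4 and 44.8 RPKM and ICAM2, a ligand of β2 integrins, at 41.3, 35.9 and 34.2 RPKM, both at 0 in all other libraries. JAM3, an adhesion molecule of vessel walls that binds Mac-1, was the single ligand that changed downwards and fell by 3.38 on the log2 scale (SE 0.23). With median of ratios its log2 change was -1.73.

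All 23 genes of G protein signalling from chemoattractant receptors were tested, of which 16 rose and 3 fell. RAC2, the GTPase of blood cells, was at 461, 542 and 509 RPKM in hPRM1 and at 0 to 1.52 RPKM in the empty vector (log2 change 8.22, SE 0.35). PLCB2 rose by 5.32 (SE 0.49). PIK3CG, the γ catalytic subunit of PI3-kinase, was at 18.1, 28.7 and 31.1 RPKM in hPRM1 and at 0 elsewhere. Of the 15 genes of the list at 1 RPKM in all empty vector libraries, 8 were higher and 3 lower. The ubiquitous CDC42 fell by 3.59 (SE 0.58), and its log2 change with median of ratios was -2.29. PLCB3 fell by 2.14 (SE 0.23), although with median of ratios its log2 change was -0.59 and not called.

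In G-CSF receptor signalling, 10 of 18 tested genes rose, 2 fell and 6 were not called. Of the 11 at 1 RPKM in all empty vector libraries, 5 were higher and 2 lower. Beside SPI1, given above, STAT5A, a transcription factor downstream of cytokine receptors, was at 6.90, 10.9 and 9.21 RPKM in hPRM1 and at 0 elsewhere. CISH, a target and inhibitor of that path, was at 5.67, 5.68 and 2.64 RPKM against 0, 0.732 and 0.484 RPKM in the empty vector. PTPN11, a phosphatase, fell by 3.45 (SE 0.43), and its log2 change with median of ratios was -1.56. GFI1, a repressor needed for neutrophil maturation, differed by -1.23 (SE 0.26; adjusted p = 0.00396, limma), but its sign turned to 0.33 with median of ratios and 0.16 with quantile normalization.

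Of 28 tested genes of integrin activation and adhesion, 13 were called higher, 7 lower and 8 were not called, and of the 20 at 1 RPKM in all empty vector libraries 5 were higher and 7 lower. FYB1 and APBB1IP, adaptors that link receptors to integrin activation, were at 167, 205 and 202 RPKM and at 52.6, 69.5 and 55.8 RPKM in hPRM1, both at 0 elsewhere. FERMT2, the kindlin of adherent cells, fell by 6.36 (SE 0.25), from 83.5, 112 and 100.5 RPKM to 0.559, 0.124 and 0 RPKM. RDX, which links membrane to actin, fell by 5.28 (SE 0.39). With median of ratios the log2 changes of FERMT2 and RDX were -5.05 and -3.16.

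Of 8 tested enzymes that modify PSGL-1, none was called higher and 3 lower (37.5%), with a median log2 difference of -1.09. All 8 were at 1 RPKM in all 3 empty vector libraries. Of all 11304 genes at that level 3.80% were higher and 75.0% lower, with a median of -2.07. C1GALT1C1, the chaperone for core O-glycan synthesis, fell by 2.97 (SE 0.33) and TPST1, a tyrosine sulfotransferase, fell by 2.38 (SE 0.54), from 3.65, 17.6 and 4.32 RPKM in the empty vector. The TPST1 call was lost with median of ratios (-1.06) and quantile normalization (-1.20). C1GALT1C1 kept its call with median of ratios, at a log2 change of -1.27. With median of ratios 2 were higher and 1 lower, and the same counts were obtained with quantile normalization.

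In ITAM and Fc receptor signalling, 13 of 16 tested genes were called higher and none lower, but 9 of the 16 passed the filter only through the hPRM1 libraries. Of the 4 at 1 RPKM in all empty vector libraries, 3 were higher. PTPN6, the phosphatase SHP-1, rose by 6.86 (SE 0.56) from 0, 3.04 and 0 RPKM to 156, 197 and 205 RPKM. Among the other phagocyte receptors, all 25 tested were called higher, against 12.9% of all tested genes. Of the 25, 18 passed the filter only through the hPRM1 libraries, as did 1002 of all tested genes, of which 98.8% were called higher. Only 2 of the 25 were at 1 RPKM in all empty vector libraries. CXCR2 and CXCR1, the interleukin-8 receptors, were at 0 in the other 6 libraries and at 177, 201 and 222 RPKM and 96.4, 99.2 and 101.0 RPKM in hPRM1. TNFRSF1B, a TNF receptor, rose by 6.34 (SE 0.37).

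**Figure D4:**
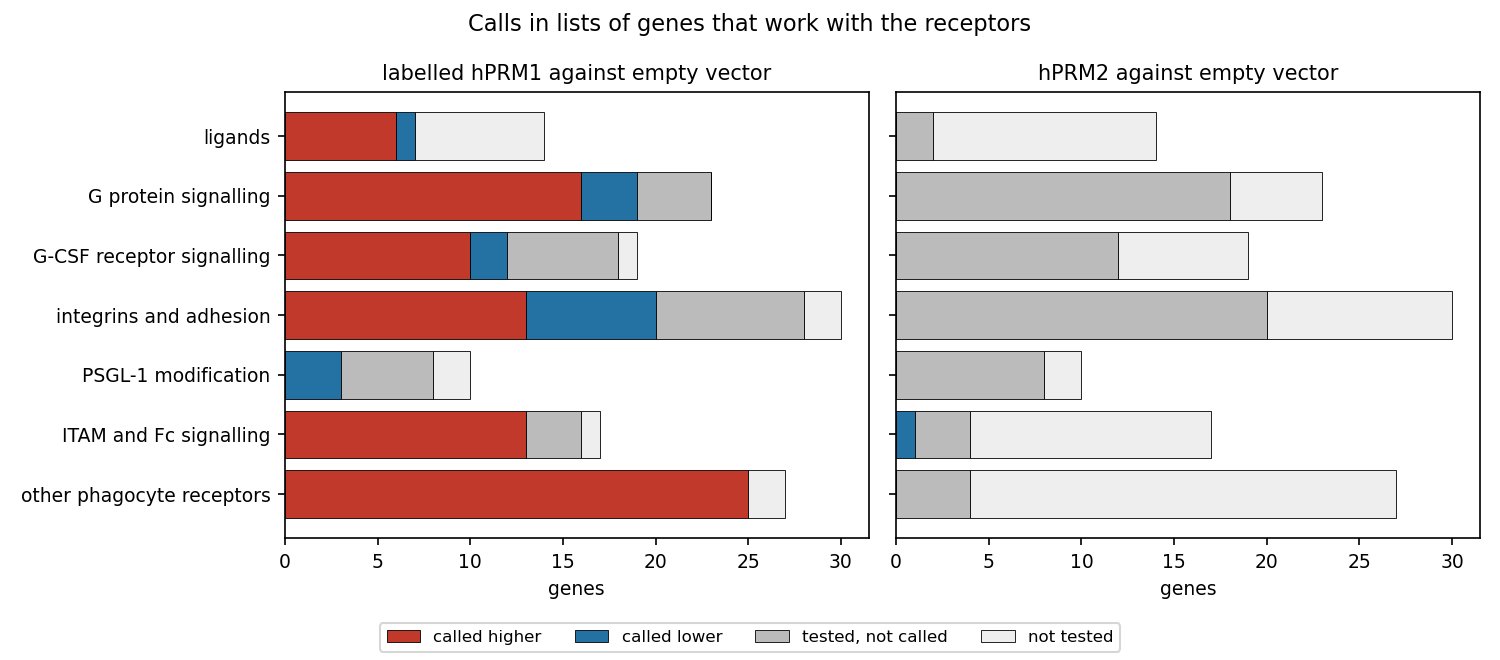
Number of genes called higher, called lower, tested but not called, or not tested in each of 7 gene lists, for the libraries labelled hPRM1 (left) and hPRM2 (right) against the empty vector. In the left panel 25 of 27 other phagocyte receptors were called higher, where 12.9% of all tested genes were. In the right panel 1 gene of the lists was called, in the ITAM and Fc list.

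In hPRM2, 64 of the partner genes were tested, none was higher and 1 was lower (1.56%), near the 1.37% of all genes, and the median log2 difference was -0.94 against -0.72. The called gene was VAV1, an exchange factor of ITAM signalling, at 2.35, 3.56 and 5.37 RPKM in the empty vector and listed at 0 in all 3 hPRM2 libraries (log2 change -2.20, SE 0.41; adjusted p = 0.0428, limma), so it passed the filter only through the empty vector libraries. In the hPRM1 libraries it was at 22.5, 35.0 and 27.2 RPKM. The number of partner genes called in hPRM2 was 16 without hPRM2 replicate 1 and 0 without any other single library. None of the 4 phagocyte receptors tested in hPRM2 was called.

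The genes most like the receptors were found by the root mean square difference of log2(RPKM + 1) from the mean profile of the 9 genes over the 9 libraries. The closest were SPN (0.36), CASP4 (0.40), LSP1 (0.41), FGR (0.41) and ARHGAP30 (0.41). SPN, the sialoglycoprotein CD43, was at 76.0, 156 and 90.4 RPKM in hPRM1 and between 0 and 0.842 RPKM elsewhere. LSP1, a leukocyte actin-binding protein, was at 85.7, 81.4 and 82.3 RPKM in hPRM1 and at 0 elsewhere.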

How the data were processed

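RNA of 9 libraries (3 per group), labelled as HEK293T, was sequenced with a 3′-end kit. The authors processed reads with nf-core/rnaseq (FastQC, Cutadapt, STAR and Salmon, versions not given in the sources used here; hg38, annotation release not given), removed mitochondrial genes and deposited RPKM values of 57338 genes, without counts and without pooling replicates. Per-length scaling of 3′-end reads lowers long transcripts, and a change of isoform changes RPKM without a change in reads. The depth per library was estimated from the step of 1 read in 13863 genes with a single transcript in GENCODE 29, with 250 bases subtracted from the length. Reads of a gene with several transcripts are ranges over them, called whole within 0.01 reads of an integer, and no count test was run. Transcripts too short to give about 1 read were left out of these ranges.

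Groups were compared with limma 3.58.1 in R 4.3.3 on log2(RPKM + 1), with trend and robust settings, over genes at 1 RPKM or more in at least 3 of 6 libraries, each comparison in its own fit without a replicate block. Calls needed an adjusted p (Benjamini-Hochberg over all genes tested) of at most 0.05 and a fold of at least 2. Fold changes on this scale understate low genes. The script was tested on simulated data. The receptors and gene lists were chosen with earlier results of these data known. Named genes are all 9 receptors, the 3 largest rises and 2 largest falls called in each list in hPRM1, up to 2 called per list in hPRM2, 9 subunits, adaptors and paralogs fixed by name, and the 5 most alike genes. Genes that vary between people in copy number or allele were left out, and 2 genes of the lists are not reported here by name. The split of list genes by their level in the empty vector was added after seeing the data. Replicate numbers did not pair the libraries. The settings varied were the pseudocount (0.1 or 5), the filter (none, or 10 RPKM), the scaling (median of ratios or quantile normalization), the libraries in a fit (all 9), a replicate block, a Welch test per gene, no fold threshold and leaving out each library. Symbols were found for 98.6% of identifiers. Other steps used Python 3.11.15 with pandas 2.3.3, numpy 2.4.6, SciPy 1.17.1 and matplotlib 3.10.9.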

Additional observations from a re-analysis of the deposited data

How the results depend on the processing

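Calls of the receptors in the hPRM1 comparison are no sign of stability, because that contrast chose them and they passed the filter through it (9 of 9 tested, and 7 of 7 with a minimum of 10 RPKM). Against hPRM2, ITGAM became called with median of ratios (3.42), quantile normalization (3.16) and without hPRM2 replicate 3 (3.48), and FCGR2A lost its call with a pseudocount of 0.1 (5.96), a Welch test per gene (4.81) and without hPRM1 replicate 2 (4.66) or 3 (4.79). The number of partner genes lower in hPRM1 went from 16 to 10 with a minimum of 10 RPKM and to 7 with median of ratios or quantile normalization. The number called in hPRM2 went from 1 to 0 with a pseudocount of 5, no filter, a minimum of 10 RPKM, median of ratios, quantile normalization or a Welch test, and to 13 with all 9 libraries in a fit, and ranged from 0 to 16 when single libraries were left out, with 16 without hPRM2 replicate 1. The cause was not tested. With the replicate block, 9 receptors were called in hPRM1 against the empty vector, 8 against hPRM2 and 0 in hPRM2, 58 partner genes were higher and 17 lower in hPRM1, and 0 were called in hPRM2. Deviations of libraries with the same number correlated at -0.08 to 0.08, so the numbers were not taken as pairs. Over all genes in hPRM2, 179 calls were higher and 180 lower, and the alternatives gave 0 to 810 higher and 0 to 1619 lower. For the shortest transcripts of at least 400 bases, the low depth of the hPRM2 libraries limits FPR2, ITGAM, TREM1 and C5AR1 most.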
